A study of Mus musculus with 16 samples.

Results

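The genes described here encode the cohesin ring, its loader, its acetyltransferases and its regulators of release: Smc1a, Smc3, Rad21, Stag1, Stag2, Nipbl, Esco1, Esco2, Pds5a and Pds5b. They were chosen as a named list of genes and found by the gene symbol that the platform annotation gives each probe set. All 10 were on the array with 1 probe set each, among 19505 named genes, and all 10 were among the 16665 genes that passed the filter on low signal. That filter passes a gene that is high in 1 group only, so the number that passed is no result about the genes.

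The mice carried floxed Sirt6 alleles, and in the knockouts (Sirt6 cKO) the tamoxifen-dependent Cre recombinase of the Acan CreERT2 allele was to delete Sirt6, a histone deacetylase. The soft centre of the intervertebral disc (nucleus pulposus, NP) and its layered fibrous wall (annulus fibrosus, AF) were taken at 24 months of age from Sirt6 cKO mice and from Sirt6 fl/fl littermates without Cre, with 4 mice per genotype. Both genotypes shared the floxed alleles, the tamoxifen treatment given in young adulthood and a mixed strain background (C57BL/6J x129S x FVB/NJ), and all were male. The Acan promoter is active in NP, AF and the cartilage endplate, so the deletion was aimed at all of these compartments. Each array held RNA of lumbar and caudal discs pooled from 1 animal, which gave 16 arrays in 4 groups of 4. Values are log2 signals on Mouse Clariom S arrays, and differences are differences of log2 signal.

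Cohesin is a ring that holds DNA. SMC1A and SMC3 form its arms, RAD21 closes the ring, and STAG1 or STAG2 binds RAD21. NIPBL loads the ring and drives its movement along DNA, which extrudes chromatin loops. ESCO1 and ESCO2 acetylate SMC3, which protects the ring from release. ESCO2 acts mainly during DNA replication, when it makes sister chromatids cohere, while ESCO1 acts through the cell cycle, also in cells that do not divide. PDS5A and PDS5B bind the ring and take part both in its release and in keeping it acetylated. In a tissue where few cells divide, such as the aged disc, the known roles of cohesin are in loop formation, gene regulation and DNA repair. The study named the cohesin complex among the themes of genes upregulated in Sirt6 cKO NP on these same arrays. The list is therefore not independent of these arrays.

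Most of these genes lay near the array background. An array's background was taken as the median signal of its 23 control probe sets for background, which lay at 4.28 to 4.33 for NP and at 4.65 to 4.83 for AF, and a probe set 2-fold above it was called over background. Between 15.5% and 17.8% of named probe sets met this on an NP array, and between 17.4% and 22.6% on an AF array. Smc1a was over background on 15 of 16 arrays and Rad21 on 12. Stag2 was over background on 3 arrays, Stag1, Nipbl and Esco1 on 2 each, and Smc3 and Esco2 on 1 each. Pds5a and Pds5b were over background on 0 of 16 arrays. In whole tissue, fewer cells of a type and less RNA per cell cannot be told apart.

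The targeted gene did not separate the genotypes on these arrays. Sirt6 signals were between 3.69 and 4.54 in NP cKO and between 3.74 and 4.21 in NP fl/fl, and none of the 8 NP arrays was over background. They were between 3.39 and 4.89 in AF cKO and between 4.49 and 5.13 in AF fl/fl. None of the 8 AF arrays was over background either. The difference was -0.03 in NP (two-sided exact permutation p = 0.83) and -0.50 in AF (exact permutation p = 0.20), where 4 arrays against 4 can reach no p below 0.0286. These values do not check the labels, since none lay over background and the position of the probes against the deleted part of the gene was not analysed here. The study took stronger staining for an acetylated histone mark in NP, AF and endplate as evidence of the deletion.

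Some arrays stood apart from others of their group. NP cKO arrays 1 and 3 had mean signals of 6.10 and 6.07 over 8 skeletal muscle markers, where the other 6 arrays of NP had 4.30 to 4.83. The same arrays had 6.08 and 6.31 over 9 cartilage markers, against 4.67 to 5.14, and 6.37 and 6.39 over 9 NP and notochord markers, against 4.98 to 5.90. Of these markers Myh4 (difference 3.02), the fast myosin heavy chain, Pygm (1.44), the muscle glycogen phosphorylase, and Acan (2.23), the cartilage proteoglycan whose promoter drives the Cre, were past the unadjusted thresholds of the study in NP. Myh4 was over background on 3 of 4 NP cKO arrays and on 0 of 4 NP fl/fl arrays, while Ckm, Tnni2 and Mylpf were over background on 0 of 8 NP arrays. Among AF arrays, cKO array 1 had the lowest mean correlation with the others (0.52). AF cKO array 4 had means of 10.1 over the cartilage markers, against 5.38 to 6.29 on the other 7 AF arrays, and of 6.93 over the muscle markers, against 4.96 to 5.61. In AF the adhesion molecule Cdh2 (-1.16), listed with the NP and notochord markers, was past the unadjusted thresholds.

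The tissue markers did not separate NP from AF cleanly. Of the 9 NP and notochord markers, 4 to 6 were over background on an NP fl/fl array, 2 to 6 on an NP cKO array, 2 to 5 on an AF fl/fl array and 2 to 6 on an AF cKO array. Of the 8 AF and tendon lineage markers, 1 to 3, 2 to 4, 2 to 5 and 1 to 4 were, in the same order of groups. Among the NP and notochord markers, Krt19 was over background on 4 of 4 NP fl/fl arrays and on 1 of 4 AF fl/fl arrays. For Cdh2 these counts were 2 and 4, and for Krt8 they were 4 and 4. Foxa2 of the notochord and Scx and Thbs4 of the AF and tendon lineage were over background on 0 of 16 arrays.

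**Figure D1:**
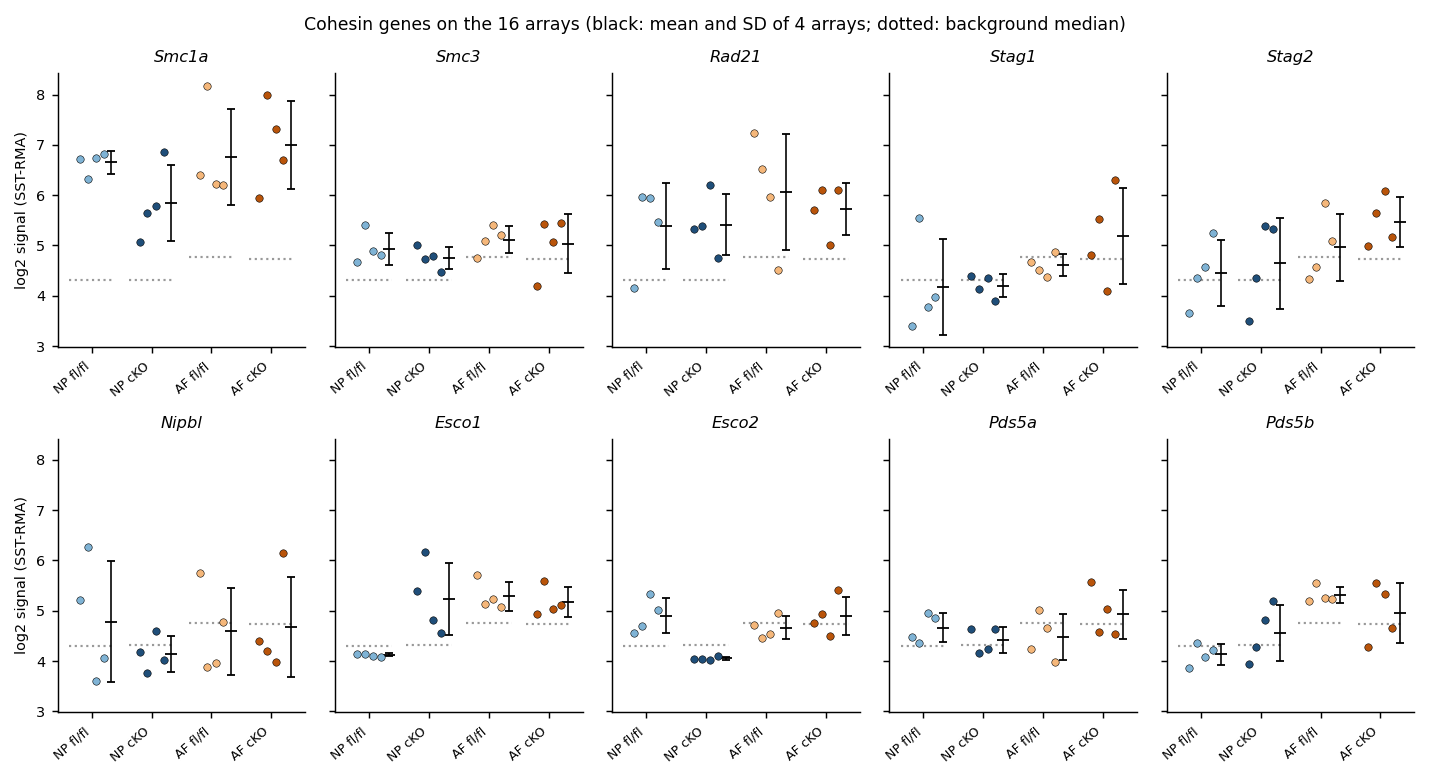
Log2 signal (vertical axis) of each of the 10 cohesin genes on the 16 arrays, by group (horizontal axis), with arrays 1 to 4 of each group from left to right. Black marks are the group mean and SD of 4 arrays and dotted lines the mean background median of the group. Esco1 in NP fl/fl and Esco2 in NP cKO lie in tight clusters under the dotted line, and Smc1a lies over it on every array.

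The acetyltransferases were the genes of this list that differed most by genotype in NP, and they differed in opposite directions. Esco1 had log2 signals of 4.15, 4.14, 4.11 and 4.09 on NP fl/fl arrays 1 to 4. On NP cKO arrays 1 to 4 it had 5.40, 6.16, 4.82 and 4.56. All 4 NP cKO arrays were thus above all 4 NP fl/fl arrays, with array 2 the highest. All 4 NP fl/fl arrays were under the background median and all 4 NP cKO arrays over it, and NP cKO arrays 1 and 2 were 2-fold over it. The means were 5.24 ± 0.71 in cKO and 4.12 ± 0.03 in fl/fl (SD, n = 4), a difference of 1.11 (SE 0.33, 95% interval 0.39 to 1.83), with an unadjusted p of 0.00567 and a Benjamini-Hochberg adjusted p of 0.934 by limma. It ranked 54 by p among the 16665 genes and did not pass adjustment.

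Esco2, the acetyltransferase of S phase, showed the reverse order. On NP fl/fl arrays 1 to 4 its log2 signals were 4.56, 4.71, 5.34 and 5.02, and on NP cKO arrays 1 to 4 they were 4.05, 4.03, 4.03 and 4.10. Every NP cKO array was below every NP fl/fl array. All 4 cKO arrays were under the background median and all 4 fl/fl arrays over it, but only fl/fl array 3 was 2-fold over it. The means were 4.05 ± 0.03 in cKO and 4.91 ± 0.35 in fl/fl (SD, n = 4), a difference of -0.85 (SE 0.25, 95% interval -1.39 to -0.31), with an unadjusted p of 0.00482 and an adjusted p of 0.934 by limma. It ranked 43 by p among all genes tested and did not pass adjustment.

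In each of these differences 1 group had only a bound. Esco1 was 2-fold over background on 0 of 4 NP fl/fl arrays and Esco2 on 0 of 4 NP cKO arrays, so the lower group had no measured level. The bound is the higher of a probe set's own signal and the lowest signal counted as over background, averaged over the arrays of the lower group. The mean of the brighter group minus this bound was -0.07 for Esco1 and -0.41 for Esco2 on the log2 scale. Both values are negative, so the mean of the brighter group lay under the bound too. Of the 4 arrays of the brighter group, 2 were 2-fold over background for Esco1 and 1 for Esco2. No fold change of RNA is therefore given for either gene, and their differences are differences of signal.

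The low groups were also tight. The SD of Esco1 over the NP fl/fl arrays was 0.029, and 0.054% of the genes tested had a smaller one, where the median gene had 0.40. The SD of Esco2 over the NP cKO arrays was 0.032, and 0.10% of genes had a smaller one. In AF, where neither gene was 2-fold over background on any array, the group SDs were between 0.22 and 0.38. These were also below the SD of the median gene, which was 0.52 in AF fl/fl and 0.51 in AF cKO. Between 8.4% and 29.7% of genes had a smaller SD.

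Set side by side on each array, the difference between Esco1 and Esco2 in NP took opposite signs in the genotypes. The log2 signal of Esco1 minus that of Esco2 was -0.41, -0.57, -1.23 and -0.93 on NP fl/fl arrays 1 to 4. On NP cKO arrays 1 to 4 it was 1.35, 2.13, 0.80 and 0.46. It was below 0 on 4 of 4 fl/fl arrays and above 0 on 4 of 4 cKO arrays, with means of -0.78 ± 0.37 and 1.18 ± 0.73 (SD, n = 4) and no overlap. The genotype difference of this quantity was 1.97 (SE 0.41), and 2.08 without NP cKO arrays 1 and 3. It is given with no test, because the pair was singled out with its NP values known. Probes of different genes differ in response, so its sign does not say which gene was more abundant.

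In AF the same quantity was 0.99, 0.69, 0.70 and 0.11 on fl/fl arrays 1 to 4 and 0.18, 0.67, 0.55 and -0.29 on cKO arrays 1 to 4. The genotypes overlapped, with means of 0.62 ± 0.37 and 0.27 ± 0.43 (SD, n = 4) and a difference of -0.35 (SE 0.28). Without AF cKO arrays 1 and 4 the difference was -0.013. The order of the groups, from low to high, was NP fl/fl, AF cKO, AF fl/fl and NP cKO, and AF cKO and AF fl/fl differed by less than their SDs.

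**Figure D2:**
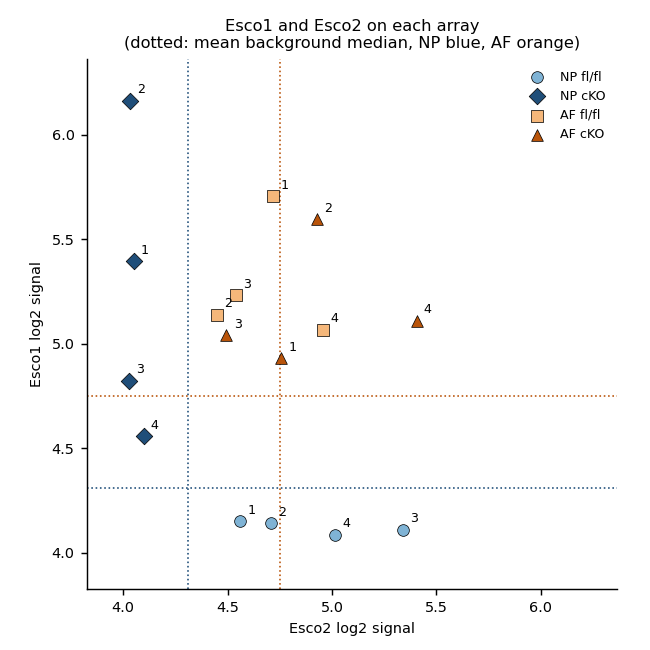
Log2 signal of Esco2 (horizontal axis) against that of Esco1 (vertical axis) on each of the 16 arrays, with the array number beside each point and dotted lines at the mean background median of NP and AF arrays. The 4 NP fl/fl arrays lie along the bottom, with Esco1 between 4.09 and 4.15, and the 4 NP cKO arrays along the left side, with Esco2 between 4.03 and 4.10, while AF arrays of both genotypes overlap.

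Each acetyltransferase taken alone overlapped between genotypes in AF. Esco1 had log2 signals of 5.71, 5.14, 5.23 and 5.07 on AF fl/fl arrays 1 to 4 and of 4.93, 5.60, 5.04 and 5.11 on AF cKO arrays 1 to 4. The difference was -0.12 (SE 0.32, 95% interval -0.81 to 0.58, adjusted p = 0.996 by limma). Esco2 had 4.72, 4.45, 4.54 and 4.96 on AF fl/fl arrays 1 to 4 and 4.76, 4.93, 4.49 and 5.41 on AF cKO arrays 1 to 4. Its difference was 0.23 (SE 0.33, 95% interval -0.48 to 0.94, adjusted p = 0.989 by limma), and 0.045 without AF cKO arrays 1 and 4. An interval that holds 0 does not show that the genotypes were alike.

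The difference between the tissues was tested itself, as the NP genotype effect minus the AF genotype effect in 1 limma fit over 16 arrays. It was 1.23 for Esco1 (SE 0.45, unadjusted p = 0.0135) and -1.08 for Esco2 (SE 0.39, unadjusted p = 0.0111), and the adjusted p by limma was 0.988 for both. Thus 2 of 10 genes had an unadjusted p of at most 0.05, where 4.12% of all genes tested did, and 0 of 16665 genes passed adjustment. The interaction contains the NP differences that were known when Esco1 and Esco2 were singled out. Neither these p-values nor the count is therefore independent of that choice. For Smc1a the interaction was -1.04 (SE 0.68, unadjusted p = 0.139 by limma), and the other 7 genes had interactions between -0.73 and 0.77.

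Smc1a, which encodes an arm of the ring, was the gene with the clearest signal over background. Of the genes of this list past the unadjusted thresholds, it alone stood over background on most arrays of both NP groups. For that reason its 250 bases before the annotated start are shown. The sequence is from RefSeq on GRCm38.p6, chrX:152016178-152016427, + strand, with 56.8% G and C. Capitals mark a CGGAAG (the core that ETS factors bind) and an ATTGG (the reverse complement of CCAAT, the box that NF-Y binds).
Smc1a: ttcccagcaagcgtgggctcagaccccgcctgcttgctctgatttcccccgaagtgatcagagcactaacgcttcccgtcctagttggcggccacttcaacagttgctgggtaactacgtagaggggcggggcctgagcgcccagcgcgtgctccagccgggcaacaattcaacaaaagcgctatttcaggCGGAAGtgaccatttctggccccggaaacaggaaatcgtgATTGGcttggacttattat
Searched on both strands in windows of the same length, CGGAAG was in 13.6% and CCAAT in 33.9% of 32851 RefSeq promoters. Of the 5 genes of the list with a promoter there (Smc1a, Smc3, Stag1, Pds5a and Pds5b), 3 held CGGAAG and 3 held CCAAT. The cell cycle element TTTGAA, found in 15.99% of promoters, was in 1 of the 5, and the E2F motifs TTTCCCGC or TTTGGCGC, found in 1.3% of promoters, were in 2, those of Stag1 and Pds5a. None of these motifs contains another. A match describes the letters only.

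Smc1a had log2 signals of 6.71, 6.32, 6.75 and 6.82 on NP fl/fl arrays 1 to 4. On NP cKO arrays 1 to 4 it had 5.07, 5.65, 5.78 and 6.87. The first 3 cKO arrays were below all fl/fl arrays and cKO array 4 was above them all. The means were 5.84 ± 0.75 in cKO and 6.65 ± 0.22 in fl/fl (SD, n = 4), a difference of -0.81 (SE 0.35, 95% interval -1.57 to -0.05), just past the fold threshold of the study (0.81 in log2), with an unadjusted p of 0.0395 and an adjusted p of 0.934 by limma. Without NP cKO arrays 1 and 3, those with the highest muscle marker signal, the difference was -0.39 (unadjusted p = 0.328 by limma). Without the same arrays Esco1 differed by 1.24 (unadjusted p = 0.0127 by limma). Esco2 differed by -0.84 there (unadjusted p = 0.0285 by limma).

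In AF, Smc1a had 6.40, 8.18, 6.23 and 6.21 on fl/fl arrays 1 to 4 and 5.94, 7.99, 7.32 and 6.71 on cKO arrays 1 to 4. The groups overlapped, and fl/fl array 2 stood well above the other 3. The difference was 0.23 (SE 0.53, 95% interval -0.92 to 1.39, adjusted p = 0.994 by limma). Without AF cKO arrays 1 and 4 it was 0.90 (unadjusted p = 0.146 by limma).

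The other parts of the ring did not differ by genotype beyond their spread. Smc3, the other arm and the substrate of both acetyltransferases, lay between 4.67 and 5.40 in NP fl/fl and between 4.47 and 5.0 in NP cKO, a difference of -0.19 (SE 0.25), or -0.34 without NP cKO arrays 1 and 3. In AF it lay between 4.76 and 5.41 in fl/fl and between 4.20 and 5.45 in cKO, a difference of -0.08 (SE 0.36). Rad21, the subunit that closes the ring, had 4.16, 5.96, 5.95 and 5.47 on NP fl/fl arrays 1 to 4 and 5.32, 5.39, 6.21 and 4.75 on NP cKO arrays 1 to 4. NP fl/fl array 1 was low, the groups overlapped, and the means differed by 0.03 (SE 0.43). In AF, Rad21 lay between 4.52 and 7.24 in fl/fl and between 5.01 and 6.11 in cKO, a difference of -0.33 (SE 0.52), or -0.50 without AF cKO arrays 1 and 4.

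The alternative subunits Stag1 and Stag2 overlapped between genotypes in both tissues. Stag1 was between 3.41 and 5.55 in NP fl/fl and between 3.91 and 4.40 in NP cKO (difference 0.03, SE 0.41). In AF it was between 4.37 and 4.88 in fl/fl and between 4.09 and 6.30 in cKO (difference 0.58, SE 0.44, unadjusted p = 0.217 by limma, the lowest of the list in AF). Without AF cKO arrays 1 and 4 the AF difference of Stag1 was 0.20. Stag2 was between 3.66 and 5.25 in NP fl/fl and between 3.51 and 5.39 in NP cKO (difference 0.18, SE 0.45). In AF, Stag2 was between 4.34 and 5.84 in fl/fl and between 4.99 and 6.09 in cKO (difference 0.51, SE 0.41), and the difference was 0.90 without AF cKO arrays 1 and 4 (unadjusted p = 0.0901 by limma). Without NP cKO arrays 1 and 3 it was 0.38 in NP. In NP both genes thus ranged from under the background median to over it within a genotype.

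Nipbl, the loader, was uneven among NP fl/fl mice. Its log2 signals were 5.21, 6.26, 3.60 and 4.07 on NP fl/fl arrays 1 to 4 and 4.18, 3.76, 4.60 and 4.02 on NP cKO arrays 1 to 4. Arrays 1 and 2 of fl/fl were above all cKO arrays and arrays 3 and 4 were not, the fl/fl SD of 1.19 was the largest of the 10 genes in NP, and the difference was -0.65 (SE 0.49, unadjusted p = 0.212 by limma). It was -0.89 without NP cKO arrays 1 and 3. In AF it lay between 3.89 and 5.74 in fl/fl and between 3.98 and 6.15 in cKO, a difference of 0.09 (SE 0.54).

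Pds5a and Pds5b, which bind RAD21 and serve both release and retention of the ring, were near background throughout. Pds5a was between 4.35 and 4.96 in NP fl/fl and between 4.15 and 4.65 in NP cKO (difference -0.24, SE 0.25). In AF it was between 3.98 and 5.01 in fl/fl and between 4.55 and 5.57 in cKO (difference 0.46, SE 0.37), with a difference of 0.33 without AF cKO arrays 1 and 4. Pds5b was between 3.87 and 4.36 in NP fl/fl and between 3.94 and 5.19 in NP cKO (difference 0.42, SE 0.30), with a difference of 0.60 without NP cKO arrays 1 and 3. In AF, Pds5b was between 5.19 and 5.55 in fl/fl and between 4.28 and 5.56 in cKO (difference -0.35, SE 0.36). None of these differences passed the unadjusted thresholds.

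Counted over the list, 0 of 10 genes differed by genotype in NP at an adjusted p under 0.05 by limma, as did 0% of the 16665 genes tested, of which 823 had an unadjusted p of at most 0.05. The study called genes at an unadjusted p up to 0.05 together with a log2 difference of 0.81 or more in either direction. At these values 1 gene was higher in NP cKO (Esco1), where 1.41% of all genes were, and 2 were lower (Esco2 and Smc1a), where 0.978% were. The groups did not overlap for 2 of 10 genes in NP (Esco1 and Esco2), where they did not for 2.81% of all genes. By sign 5 of the 10 NP differences were positive and 5 negative, with a median of -0.08 where the median of all genes was -0.02.

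The Smc1a call depended on most arrays, and those of Esco1 and Esco2 on 1 array each. Leaving out any 1 of NP fl/fl arrays 1, 3 and 4 or NP cKO arrays 1, 2 and 3 took Smc1a out of the thresholds, and its difference then ranged from -0.79 to -0.55, whereas without NP cKO array 4 it was -1.15. It also left them after quantile normalization (-0.79, unadjusted p = 0.060), median centring (-0.79), a trended and robust eBayes (unadjusted p = 0.0539) and in 1 fit over all 16 arrays (unadjusted p = 0.106 by limma). Esco1 left the thresholds without NP cKO array 2 (0.80, where the threshold is 0.81), and Esco2 without NP fl/fl array 3 (-0.71), and both kept an unadjusted p of at most 0.05 there. Without NP fl/fl array 3, Nipbl passed them (-1.04, unadjusted p = 0.0438 by limma), whereas without NP fl/fl array 2 its difference was -0.15 (unadjusted p = 0.701 by limma).

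**Figure D3:**
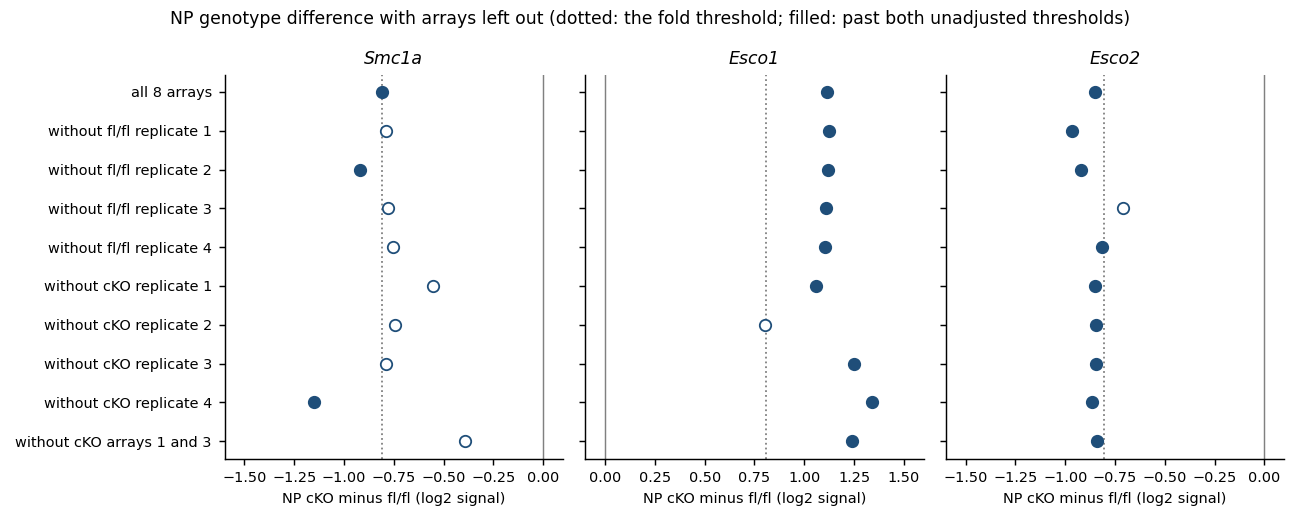
NP cKO minus fl/fl difference of mean log2 signals (horizontal axis) of Smc1a, Esco1 and Esco2 with all 8 arrays and with arrays left out (vertical axis). Dotted lines mark the fold threshold of 0.81 in log2 and filled points pass both unadjusted thresholds, as Esco1 and Esco2 do in all but 1 of the 10 settings each and Smc1a in 3.

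In AF, 0 of 10 genes differed at an adjusted p under 0.05, as did 0% of all genes tested by limma. At the study's thresholds 0 were higher, where 1.97% of all genes were, and 0 were lower, where 1.57% were. The groups overlapped for all 10 genes, where they did not for 2.61% of all genes. Of the 10 AF differences 6 were positive and 4 negative, with a median of 0.16 where the median of all genes was 0.01. Without AF cKO array 3, Stag1 passed the unadjusted thresholds (0.94, unadjusted p = 0.0432 by limma), whereas without AF cKO array 4 its difference was 0.20 (unadjusted p = 0.63 by limma).

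**Figure D4:**
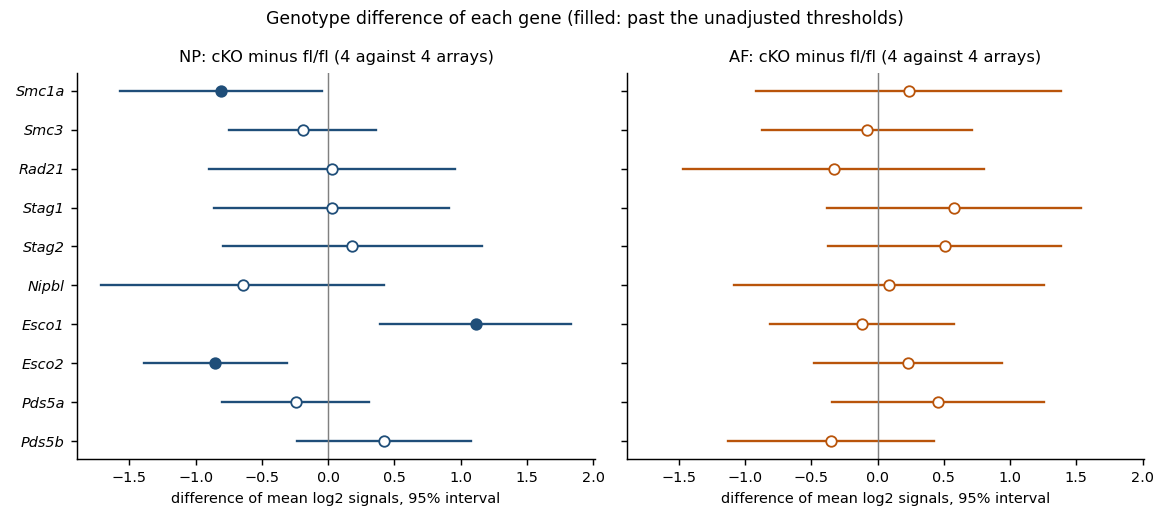
Difference of mean log2 signals, cKO minus fl/fl (horizontal axis), of each of the 10 genes in NP (left) and AF (right), with 95% intervals from limma over 4 against 4 arrays. Filled points pass the unadjusted thresholds, and these are Smc1a, Esco1 and Esco2 in NP and no gene in AF.

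The related genes around the list did not pass the thresholds in either tissue. Of all genes tested, 1.41% passed as higher and 0.978% as lower in NP, and 1.97% and 1.57% in AF. A count of 0 in lists this small is near these shares and is no result about the lists. Of 14 other cohesin genes, 12 were tested, and 0 passed the unadjusted thresholds in NP (4 differences positive, 8 negative, median -0.10) or in AF (9 positive, 3 negative, median 0.13). Among them Wapl, which releases the ring from DNA and is named here for that role after its values were seen, had means of 5.01 ± 0.33 in NP cKO and 5.62 ± 0.67 in NP fl/fl (SD, n = 4), a difference of -0.62 (SE 0.34, unadjusted p = 0.0973 by limma). Of 14 genes of condensin and the SMC5/6 complex, the other SMC rings, 13 were tested and 0 passed in either tissue. Of 20 genes of DNA replication and mitosis, the processes in which ESCO2 and cohesion act, 18 were on the array and 14 were tested. Their NP differences were positive for 6 and negative for 8, with a median of -0.02, and 0 passed in NP or AF. On each NP array, 1 to 3 of the 18 genes were over background.

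Between tissues, NP and AF of fl/fl mice were compared after each array was centred on the median of its named probe sets, because the array medians were between 4.36 and 4.44 for NP and between 4.83 and 4.96 for AF. The sources used here do not give whether the tissues went through 1 normalization. None of the 10 genes differed at an adjusted p under 0.05 by limma, where 0.384% of all genes were higher in NP and 0.36% lower. On this scale Esco2 was higher in NP by 0.74 (SE 0.27, unadjusted p = 0.0128, adjusted p = 0.168 by limma), and Esco1 differed by -0.67 (SE 0.31, unadjusted p = 0.0480, adjusted p = 0.297 by limma). Pds5b differed by -0.67 (unadjusted p = 0.0474 by limma) and Pds5a by 0.69 (unadjusted p = 0.0414 by limma). At an unadjusted p of at most 0.05 were 4 of the 10 genes, and 2771 of the 16665 genes tested. On signals as deposited, without centring, Esco1 (-1.17, adjusted p = 0.0238) and Pds5b (-1.17, adjusted p = 0.0252 by limma) passed the threshold, where 2330 of all genes tested did. The tissue differences thus depend on the scale.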

How the data were processed

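RNA of NP and AF from 4 Sirt6 cKO and 4 Sirt6 fl/fl mice was measured on 16 Mouse Clariom S arrays. The authors labelled cDNA from total RNA, scanned the arrays and summarised them by SST-RMA in the Expression Console, and GEO's processing field also lists the Transcriptome Analysis Console. What they deposited is a table of log2 signals for 28846 probe sets. Of these, 19572 had 1 gene symbol in the platform annotation. A named probe set entered the tests if 4 or more of the 16 arrays placed it above their own 40th percentile, and of several probe sets of a gene the 1 with the highest mean was used, which left 16665 genes. The number of arrays limits the precision.

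Genotypes were compared within each tissue in R 4.3.3 with limma 3.58.1 (functions lmFit and eBayes, 4 against 4 arrays, no covariates), with Benjamini-Hochberg adjustment over all genes tested. The interaction and the NP against AF contrast came from 1 fit over 16 arrays. The thresholds of the study were used for a further count, without its requirement on detection above background. Its test, SAM, was run only as an alternative written anew. For Sirt6 the test was an exact permutation test, two-sided. The 10 genes were always described, and from the related lists genes were named when past those thresholds, up to 4 per list and tissue. Wapl and the markers given by their detection alone were named after their values were seen. Members and lists were chosen with earlier results of these data known. The fits were tested on simulated data. Promoters were read with Python 3.11.15 from RefSeq on GRCm38.p6, and figures drawn with matplotlib 3.10.9. Replicate numbers are in the labels of all groups, but deviations of same-numbered arrays correlated between -0.14 and 0.06, so they were not used to pair arrays. Scan dates and RNA quality per sample were not analysed here.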

Additional observations from a re-analysis of the deposited data

Results flagged for a closer look

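Smc1a on AF fl/fl array 2 had a log2 signal of 8.18, while the other 3 arrays of its group lay between 6.21 and 6.40, and the gap was 0.902 of the whole range of the group, past Dixon's critical value for 4 arrays. It was the only such array among the 44 groups of 4 examined, where chance gives about 1 in 20.

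The genotype effect on Esco1 was larger in NP than in AF by 1.23 (SE 0.45, unadjusted p = 0.0135, adjusted p = 0.988 by limma), with 4 of 4 NP cKO arrays above all NP fl/fl arrays. The effect on Esco2 differed by -1.08 (SE 0.39, unadjusted p = 0.0111, adjusted p = 0.988 by limma), with 4 of 4 NP cKO arrays below all NP fl/fl arrays. Neither passed adjustment.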

How the results depend on the processing

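Alternatives were no filter on low signal, a stricter filter (over background on 4 or more arrays of the tissue), SAM, a replicate block, 1 fit over all arrays, eBayes with a trend and robust, array weights, centring, quantile normalization and leaving out arrays. Of 684 values of single genes under them, 636 kept their direction and their side of an adjusted p of 0.05, 46 changed sign and 2 newly passed, both in NP against AF as deposited. At the unadjusted thresholds, Smc1a in NP did not pass in 12 of 18 alternatives, Esco1 and Esco2 in NP each did not in 1 of 17, and Nipbl in NP and Stag1 in AF newly passed in 1 of 17 each. Esco1 and Esco2 kept direction and an unadjusted p of at most 0.05 in NP in all 17 alternatives run (0.80 to 1.34, and -0.97 to -0.71). With the replicate block, 3 of the 10 genes remained past the unadjusted thresholds in NP and 0 in AF, and the block changed the call of none of the 10, while the genes past them became 461 in NP and 673 in AF.

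The 398 genes past the unadjusted thresholds in NP became 85 under the stricter filter, 616 without NP cKO arrays 1 and 3 and 342 to 710 with 1 array left out, 710 being without cKO array 4 and 653 without cKO array 2. Of the 3 members, 0 remained under the stricter filter, which kept 2 members (Smc1a, unadjusted p = 0.0587 by limma, and Rad21). With 1 array left out 1 to 3 of them remained. Only Esco2 remained without cKO array 2, and only Esco1 without fl/fl array 3, where Nipbl newly passed. The 590 genes in AF became 122 under the stricter filter, and the 0 members became 0 to 1 with 1 array left out. The 124 genes that differed between NP and AF became 2330 as deposited and 17 to 105 with 1 array left out. With 1 array left out Sirt6 was -0.23 to 0.055 for NP, in both directions, and -0.73 to -0.23 for AF, the value -0.73 being without AF cKO array 3 (exact permutation p = 0.0286). The cause was not tested for any of these. The stricter filter left 2791 genes to test in NP and 3537 in AF.

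The largest differences with a change of sign were -0.35 for Pds5b and -0.33 for Rad21 by genotype in AF, 0.36 for Rad21 in the interaction and 0.39 for Smc1a between NP and AF. In NP, Rad21 was -0.012 after quantile normalization and -0.32 without NP cKO arrays 1 and 3, and Stag1 was -0.0085 with array weights and -0.15 without those arrays. With 1 array left out Rad21 ranged from -0.38 to 0.25, Stag1 from -0.23 to 0.49 and Stag2 from -0.083 to 0.56. In AF, Smc3 was 0.050 with array weights, and without AF cKO arrays 1 and 4 Smc3 was 0.13, Esco1 0.032, Nipbl -0.51 and Pds5b 0.14. With 1 AF array left out Smc3 ranged from -0.22 to 0.20, Rad21 from -0.84 to 0.064, Esco1 from -0.26 to 0.024, Nipbl from -0.40 to 0.47 and Smc1a from -0.10 to 0.71. The interaction with 1 array left out ranged from -0.047 to 0.87 for Rad21, from -0.39 to 0.041 for Smc3 and from -0.62 to 0.056 for Stag2. Between NP and AF, signals as deposited gave -0.11 for Smc1a, -0.18 for Smc3 and -0.43 for Stag1, quantile normalization gave -0.014 for Stag1, and with 1 array left out Rad21 ranged from -0.69 to 0.23, Stag1 from -0.39 to 0.32 and Stag2 from -0.27 to 0.28.

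Under 1 in 4 named probe sets lay 2-fold over background on any array, and 8 of the 10 genes lay there on at most 3 of 16 arrays, so most differences described here are between signals near background.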
